A study of Mus musculus with 9 samples.

Results

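*Slc11a2* and 9 other genes of iron handling were followed in the striatum of mice with a targeted *Shank3* gene. *Slc11a2* was chosen by its measured values, because its level was low in the KO libraries, and the other 9 genes were named for their function in iron uptake, storage, export and sensing. The naming was done with earlier results of these data known. The 10 genes were taken by symbol from the 15464 genes of the expression table, and all 10 were among the 14239 genes tested. The question was whether the low *Slc11a2* level in KO came with differences in the other genes that take up, store, export or sense iron.

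The striatum of male littermates on a C57BL/6J background, aged 10 to 12 weeks, was profiled by RNA sequencing of polyadenylated RNA. The 3 groups were wild-type mice (WT), heterozygotes (HET) and homozygotes (KO) for the *Shank3B* allele, which targets the exons for the PDZ domain of Shank3, and each group had 3 libraries from 1 mouse each. The allele is carried in every cell of the body. RNA came from whole striatum in bulk, so that no value below is specific to a cell type. Values are normalized counts, which are estimated read counts of a gene divided by a size factor of the library, and their sums ran from 30830020 in HET replicate 1 to 33790296 in HET replicate 3. The number of reads behind these sums is unknown here.

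Cells take up most iron bound to transferrin, which is brought into endosomes by the transferrin receptor, and the divalent metal transporter encoded by *Slc11a2* then moves the reduced iron into the cytosol. Iron that is not used is stored in ferritin or leaves through ferroportin, and the iron regulatory proteins bind hairpins in the mRNAs of these genes when iron is scarce. In brain, transferrin mRNA is made mainly by oligodendrocytes and the choroid plexus, and the basal ganglia are among the regions rich in iron.

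The targeted gene was read first. *Shank3* had 7209, 8812 and 6043 normalized counts in the WT libraries, 7575, 7098 and 8050 in HET, and 10237, 10798 and 10578 in KO. The KO libraries were all above the others, and because the gene sum also counts reads from exons that the allele leaves in place, a high sum does not go against the KO label. HET could not be separated from WT by this sum.

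Libraries did not stand together by genotype alone. On principal component 1, which held 33.6% of the variance, HET replicate 3 at −33.8 and KO replicate 3 at −34.2 lay apart from the other libraries, which ran from −1.35 to 17.02. In 6 of the 10 iron genes these libraries were the 2 highest or the 2 lowest of the 9, against 35.6% of all genes tested, in a count made after the values were seen. They were the 2 highest in *Tfrc*, *Aco1* and *Steap2* and the 2 lowest in *Ftl1*, *Ireb2* and *Slc39a14*. The log2 fold changes of the 10 genes against WT were therefore also taken without both libraries, and those that changed by more than 0.1 are given below.

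*Slc11a2* (ENSMUSG00000023030) lies on the minus strand of chromosome 15 of GRCm38, from 100387898 to 100425072. It had 1959, 1970 and 2011 normalized counts in the WT libraries, 1984, 1598 and 1629 in HET, and 1321, 1461 and 1339 in KO. All KO libraries were below all WT and HET libraries. HET replicate 1 lay among the WT libraries, and HET replicates 2 and 3 lay between WT and KO. The HET mean was 1737 ± 214 (SD, n = 3), between the means of WT at 1980 ± 27.8 (SD, n = 3) and of KO at 1374 ± 76.5 (SD, n = 3). The SD was 1.41% of the mean in WT, 12.3% in HET and 5.57% in KO.

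The log2 fold change (log2FC), taken on log2(normalized count + 1), was −0.53 for KO against WT and −0.33 for KO against HET. As *Slc11a2* was selected on its KO values, these are descriptions without a test. With HET replicate 3 and KO replicate 3 left out they were −0.51 and −0.36. HET against WT, which shares its WT libraries with the contrast used for the choice, gave −0.20 (standard error 0.10, 95% confidence interval −0.42 to 0.03, adjusted p = 0.999 by limma). As the WT libraries are shared, this test is not independent of the choice. The HET value was −0.15 without HET replicate 3, −0.14 without HET replicate 2 and −0.29 without HET replicate 1. The last setting drops the HET library that lay among WT. There limma called *Slc11a2* at the unadjusted level only (adjusted p = 0.974 by limma), as it did 287 of all 14209 genes tested. In bulk tissue, fewer cells that express a gene and less RNA of it per cell cannot be told apart.

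**Figure D1:**
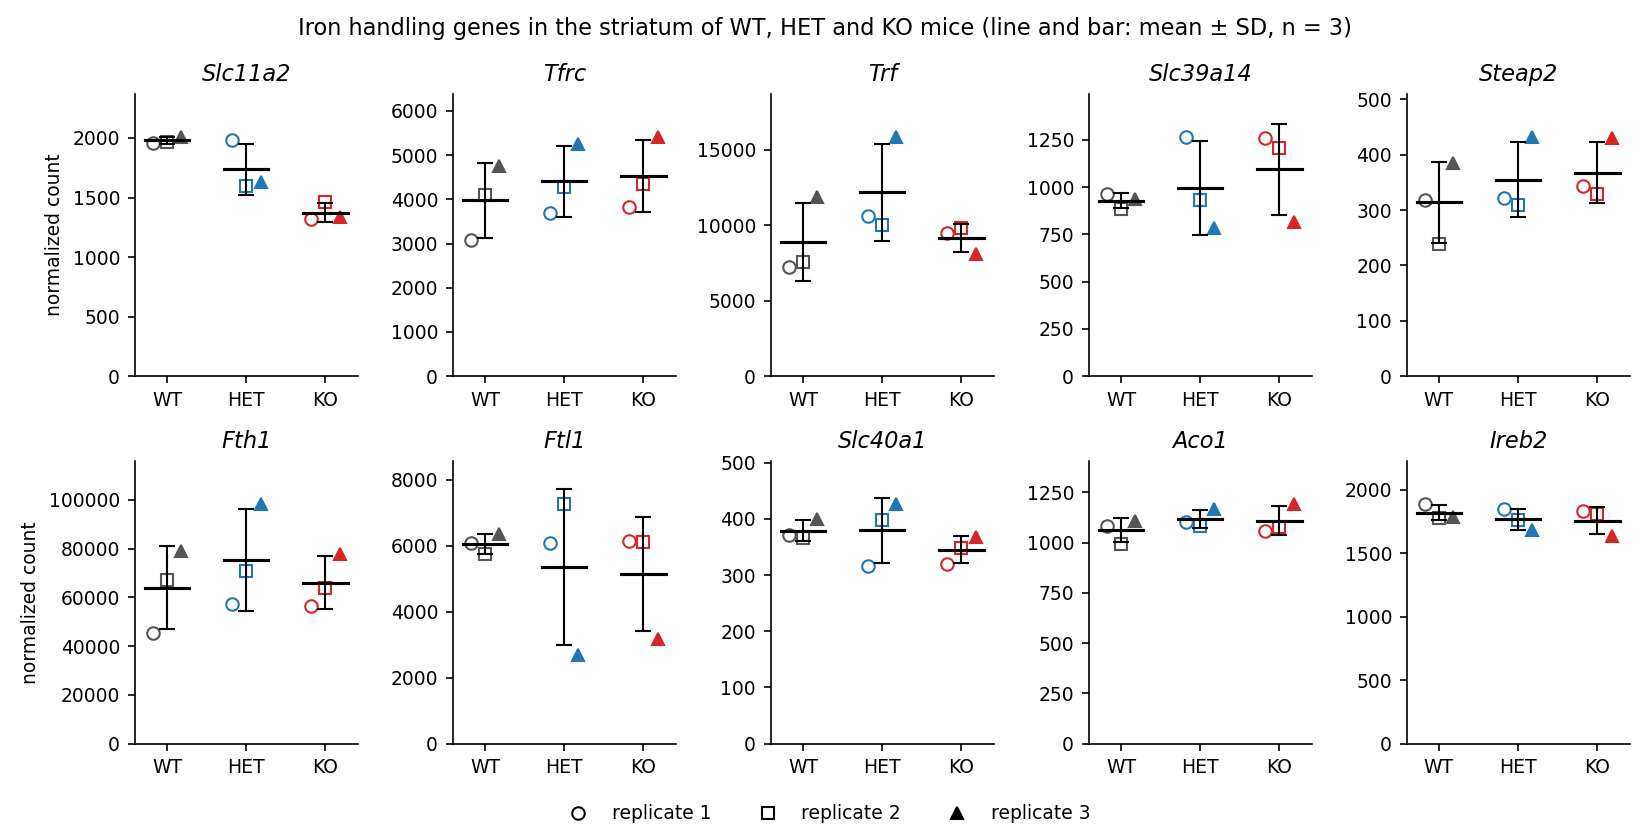
Normalized counts (vertical axes, from 0) of the 10 iron handling genes in each WT, HET and KO library, with marker shapes for the replicate number and a line and bar for the mean ± SD (n = 3). The KO libraries of *Slc11a2*, at 1321 to 1461, sit below the WT libraries at 1959 to 2011, and in the other 9 genes the KO and WT points overlap.

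Beside this, medium spiny neuron markers were read, since these neurons make up most of the striatum. All 12 of 12 markers had a log2FC below 0 in KO against WT (median −0.27) and in KO against HET (median −0.39), and 4 of 12 in HET against WT (median 0.065). The KO and HET libraries of 1 of the 12, *Adora2a*, did not overlap, as was the case for 4.45% of all genes. None of the 12 markers passed an unadjusted p of 0.05 by limma in any comparison. Their summed normalized counts were 154878, 176303 and 88858 in WT, 154714, 121333 and 141194 in HET, and 129730, 112412 and 81227 in KO. The most abundant of them was *Pde10a*, and none was at 0 in a library. The part of the neuron markers in the *Slc11a2* values was not tested.

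The tests across all genes set the background. At an adjusted p under 0.05, limma called 0 of 14239 genes (0%) in KO against WT, 0 (0%) in HET against WT and 0 (0%) in KO against HET. At an unadjusted p under 0.05 it called 117 genes (0.822%), 158 genes (1.11%) and 186 genes (1.31%). The libraries of both genotypes did not overlap, in either direction, for 4.54% of genes in KO against WT, 4.45% in HET against WT and 4.45% in KO against HET. In KO against WT the targeted gene *Shank3* itself was not called at the adjusted level, although all its KO libraries lay above WT. Its log2FC was 0.54 (unadjusted p = 0.0019, adjusted p = 0.999 by limma). A gene that was not called is therefore not shown to be unchanged. With the replicate number as a block in a paired fit, KO against HET had 318 genes at an unadjusted p under 0.05.

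Among the 9 iron genes other than *Slc11a2*, limma called 0 at either level in all 3 comparisons. Their KO and WT libraries overlapped in 9 of 9 genes, as did their HET and WT libraries. In KO against WT 6 were above 0 and 3 below, with a median log2FC of 0.072 where that of all genes tested was 0.0047. In HET against WT the split was again 6 above and 3 below, with a median of 0.074 where that of all genes was −0.0027. In KO against HET 3 were above 0 and 6 below, with a median of −0.0079 where that of all genes was −0.00099. That median of the 9 genes was −0.063 without KO replicate 3, −0.038 without KO replicate 1 and 0.0035 with the libraries scaled to equal sums. Both comparisons with WT share its libraries. The KO median was −0.024 without WT replicate 1, 0.016 without WT replicate 2, 0.019 without KO replicate 3 and 0.22 without WT replicate 3. The HET median was 0.014 without WT replicate 1, 0.027 without WT replicate 2, 0.036 without HET replicate 3 and 0.12 without HET replicate 1.

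**Figure D2:**
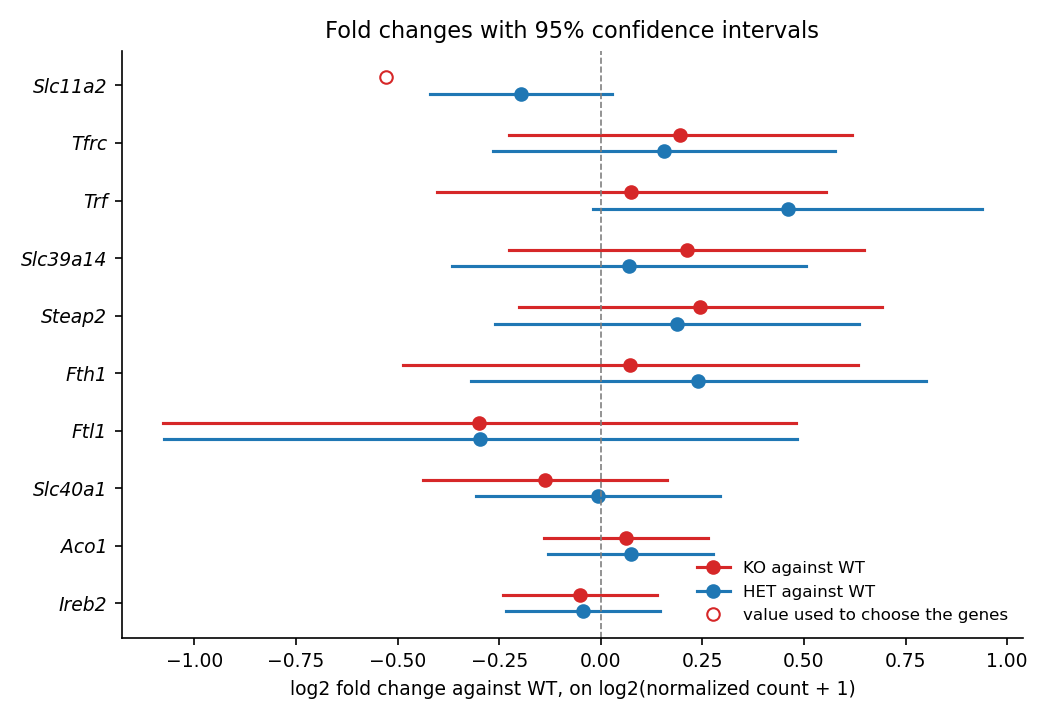
Log2 fold changes against WT (horizontal axis) of the 10 genes, with 95% confidence intervals from limma for KO (red) and HET (blue). The open symbol is the *Slc11a2* value used to choose the genes, −0.53, drawn without an interval, and every interval drawn includes 0.

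Of the uptake genes, *Tfrc* encodes the transferrin receptor, whose mRNA is stabilised when iron is scarce. It had 3075, 4102 and 4752 normalized counts in WT, 3683, 4278 and 5255 in HET, and 3827, 4345 and 5420 in KO. The genotypes overlapped, and in each genotype the library numbered 1 was the lowest and the library numbered 3 the highest. The log2FC was 0.20 in KO (standard error 0.19, 95% confidence interval −0.22 to 0.62) and 0.16 in HET (95% confidence interval −0.27 to 0.58). Without HET replicate 3 and KO replicate 3 these values were 0.059 and 0.020, without WT replicate 1 they were 0.022 and −0.019, and without WT replicate 3 they were 0.34 and 0.30. Each KO and HET library was above the WT library of the same number. In a fit with replicate number as block the standard error fell to 0.075 and limma called the KO value at the unadjusted level only (adjusted p = 0.999 by limma), while over all genes the numbers did not pair WT with KO.

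*Trf* encodes transferrin, the iron carrier of blood and brain fluid. It had 7254, 7562 and 11861 normalized counts in WT, 10600, 10057 and 15886 in HET, and 9515, 9838 and 8129 in KO. All HET libraries were above all KO libraries, while WT replicate 3 lay above HET replicates 1 and 2 and above KO. *Trf* was the 1 of 9 genes whose KO and HET libraries did not overlap, as was the case for 4.45% of all genes. The log2FC was 0.46 in HET against WT (standard error 0.21, 95% confidence interval −0.02 to 0.94, adjusted p = 0.999 by limma), 0.08 in KO against WT and −0.38 in KO against HET. The last difference had an exact two-sided permutation p of 0.1, the smallest that 3 against 3 unpaired libraries allow, so that test could not pass 0.05. With replicate number as block its standard error was 0.18 (unadjusted p = 0.067 by limma). The HET value against WT fell to 0.25 without HET replicate 3 and rose to 0.69 without WT replicate 3. The KO value against WT was −0.053 without WT replicate 1, −0.023 without WT replicate 2, 0.30 without WT replicate 3 and 0.16 without KO replicate 3, so its sign is not settled. KO against HET shrank to −0.18 without HET replicate 3 and to −0.094 without HET replicate 3 and KO replicate 3.

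Oligodendrocyte markers were read beside *Trf*. All 12 of 12 had a log2FC above 0 in HET against WT (median 0.36) and below 0 in KO against HET (median −0.30), while 9 of 12 were above 0 in KO against WT (median 0.063). Their summed normalized counts were 173216, 162518 and 266738 in WT, 227972, 258406 and 251937 in HET, and 227236, 250154 and 141366 in KO. The most abundant marker was *Mbp*, and none was at 0. In HET against WT 1 of the 12, *Aspa*, passed an unadjusted p of 0.05 by limma (log2FC 0.48), as did 1.11% of all genes. The KO and HET libraries of 1 of the 12, *Cnp*, did not overlap, as was the case for 4.45% of all genes. Choroid plexus markers summed to between 179 and 372 normalized counts in any library, with *Clic6* as the most abundant, and *Ttr* and *Slc4a5* were listed at 0 in at least 1 library. The part of oligodendrocyte RNA in the *Trf* values was not tested.

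*Slc39a14* encodes a transporter that brings iron not bound to transferrin, zinc and manganese into the cell. It had 964, 882 and 939 normalized counts in WT, 1267, 932 and 782 in HET, and 1258, 1205 and 818 in KO. KO replicates 1 and 2 were above all WT libraries and KO replicate 3 below them. The log2FC in KO was 0.21 (standard error 0.20, 95% confidence interval −0.23 to 0.65) with all libraries and 0.41 without HET replicate 3 and KO replicate 3. In that setting *Slc39a14* was the 1 gene of the 9 at an unadjusted p under 0.05, as were 217 of all 14170 genes tested, and 0 of 9 passed the adjusted threshold. Omitting KO replicate 1 gave 0.097 and omitting KO replicate 2 gave 0.13. In HET it was 0.07 with all libraries, −0.12 without HET replicate 1 and 0.23 without HET replicate 3.

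*Steap2* encodes a reductase that turns ferric into ferrous iron. It had 319, 238 and 384 normalized counts in WT, 322, 310 and 433 in HET, and 344, 329 and 431 in KO. WT replicate 2 was the lowest library and HET replicate 3 and KO replicate 3 the highest. The log2FC was 0.25 in KO (standard error 0.20, 95% confidence interval −0.20 to 0.69) and 0.19 in HET, and these were 0.061 and 0.0033 without WT replicate 2, 0.13 and 0.036 without HET replicate 3 and KO replicate 3, and 0.40 and 0.35 without WT replicate 3.

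Storage was read from both ferritin chains. *Fth1* encodes the heavy chain, which oxidises iron as it enters the shell. It had 45507, 67053 and 79176 normalized counts in WT, 57234, 70759 and 98292 in HET, and 56534, 63772 and 77879 in KO. As in *Tfrc*, the library numbered 1 was the lowest and the library numbered 3 the highest in each genotype. The log2FC was 0.07 in KO (standard error 0.25, 95% confidence interval −0.49 to 0.63) and 0.24 in HET, less than the spread between libraries of 1 genotype. The KO value was −0.15 without WT replicate 1, 0.25 without WT replicate 3 and −0.053 without HET replicate 3 and KO replicate 3, so no direction can be given. The HET value was 0.014 without WT replicate 1, 0.031 without HET replicate 3 and 0.42 without HET replicate 1.

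*Ftl1* encodes the light chain, which helps iron to settle as mineral inside the shell. It had 6085, 5738 and 6353 normalized counts in WT, 6099, 7263 and 2702 in HET, and 6139, 6130 and 3165 in KO. The libraries HET replicate 3 and KO replicate 3 were low, and the other 7 lay between 5738 and 7263. The log2FC was −0.30 in KO (standard error 0.35, 95% confidence interval −1.08 to 0.48) and −0.30 in HET (95% confidence interval −1.08 to 0.48). Without these libraries it was 0.02 in KO and 0.14 in HET, so both negative values rested on them. The KO value was −0.46 without KO replicate 1 and the HET value −0.58 without HET replicate 2. In the same libraries *Fth1*, at 98292 and 77879, was not low. The annotation holds 5 genes named as ferritin copies, such as *Ftl1-ps1* and *Fth-ps2*, and none of these is among the genes analysed here. Copies under other names were not searched for. Reads that match a copy can be shared out differently between libraries, so the *Fth1* and *Ftl1* values are uncertain in this respect.

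Export depends on *Slc40a1*, which encodes ferroportin, the known iron exporter of animal cells. It had 371, 366 and 401 normalized counts in WT, 315, 398 and 426 in HET, and 319, 348 and 367 in KO. KO replicates 1 and 2 were below all WT libraries and KO replicate 3 was just above the lowest of them. The log2FC in KO was −0.14 (standard error 0.13, 95% confidence interval −0.44 to 0.16), with an exact two-sided permutation p of 0.2, and was −0.082 without KO replicate 1. In HET it was −0.0073 and turned to 0.12 without HET replicate 1.

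The sensors varied little between libraries. *Aco1* encodes iron regulatory protein 1, an aconitase when it holds an iron-sulfur cluster and an RNA-binding protein when it does not. It had 1084, 994 and 1107 normalized counts in WT, 1101, 1084 and 1166 in HET, and 1059, 1077 and 1191 in KO. The genotypes overlapped, with a log2FC of 0.06 in KO (95% confidence interval −0.14 to 0.27) and 0.07 in HET (95% confidence interval −0.13 to 0.28). With 1 library fewer the KO value lay between 0.010 and 0.095, that of HET between 0.027 and 0.10.

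*Ireb2* encodes iron regulatory protein 2, which is degraded when iron is plentiful. It had 1886, 1780 and 1787 normalized counts in WT, 1851, 1765 and 1680 in HET, and 1830, 1807 and 1632 in KO. The log2FC was −0.05 in KO (95% confidence interval −0.24 to 0.14) and −0.04 in HET (95% confidence interval −0.23 to 0.15), and the KO value was 0.0012 without HET replicate 3 and KO replicate 3. Single libraries left out put the KO value between −0.081 and 0.0012, that of HET between −0.078 and −0.0077. The activity of both proteins is set after transcription, which mRNA values do not show. Of the 9 genes, *Aco1*, *Ireb2* and *Slc40a1* had KO intervals that left out a change of the size seen in *Slc11a2* in either direction, and for the other 6 a rise of that size or, for *Ftl1*, a fall lay inside the interval.

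Compared per length, ferritin led the 10 genes. The mean over the 9 libraries, in normalized counts per kb of merged exons, was 19737 for *Fth1*, 4119 for *Ftl1*, 3036 for *Trf*, 696 for *Tfrc*, 267 for *Slc11a2*, 244 for *Aco1*, 188 for *Ireb2*, 95.3 for *Slc39a14*, 40.9 for *Slc40a1* and 28.5 for *Steap2*. The place of *Slc11a2* is a description, since its low KO values were the reason for its choice. In WT its level per kb was 312 ± 4.38 (SD, n = 3), above *Aco1* at 236 ± 13.2 (SD, n = 3), and in KO it was 216 ± 12.0 (SD, n = 3), below *Aco1* at 247 ± 15.9 (SD, n = 3) and still above *Ireb2* at 185 ± 11.4 (SD, n = 3). In HET *Slc11a2*, at 273 ± 33.7 (SD, n = 3), and *Aco1*, at 248 ± 9.59 (SD, n = 3), did not differ beyond their spread. *Ftl1* and *Trf* also did not differ beyond their spread in HET, at 3996 ± 1769 and 3669 ± 970 (SD, n = 3), or in KO, at 3839 ± 1280 and 2759 ± 274 (SD, n = 3). With the longest annotated transcript as the length, *Ireb2* at 309 passed *Aco1* at 286, and the other 8 genes kept their places. On that scale *Slc11a2* in KO, at 311 ± 17.3 (SD, n = 3) per kb, was not below *Ireb2* at 304 ± 18.8 (SD, n = 3) or *Aco1* at 289 ± 18.6 (SD, n = 3), and in WT it was above both.

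A known link between these mRNAs is the iron-responsive element, a hairpin that iron regulatory proteins bind. In an upstream UTR it blocks translation and in a downstream UTR it can protect the mRNA. The hairpin was searched for in the annotated UTRs as a C, 5 bases, the loop CAGTGN and 5 bases that pair with the first 5 (A with T, G with C or T), with at most 1 unpaired. It was found in 5 of the 10 genes, and its letters were not found in the UTRs of *Trf*, *Aco1*, *Ireb2*, *Slc39a14* and *Steap2*. Without an unpaired base, 0.148% of 20971 genes held it in the upstream UTR and 0.682% of 21124 genes in the downstream UTR, and with 1 allowed these shares were 0.997% and 4.77%. A match is a description of the sequence and not a tested binding site.

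The hairpins are shown because iron regulatory proteins are known to bind sequences of this form, with the loop in capitals, 5′ to 3′ on the strand of the gene. In the upstream UTR they lay at chr19:9982732-9982760 (plus strand) for *Fth1*, at chr7:45459779-45459807 (minus strand) for *Ftl1* and at chr1:45925465-45925493 (minus strand) for *Slc40a1*. In the downstream UTR, *Tfrc* held 4 on the plus strand, 2 of which are shown, at chr16:32631219-32631247 and chr16:32631598-32631626, and *Slc11a2* held 1 at chr15:100395153-100395181 (minus strand). All positions are of GRCm38.
*Fth1*: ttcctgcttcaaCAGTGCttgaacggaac
*Ftl1*: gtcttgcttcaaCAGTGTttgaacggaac
*Slc40a1*: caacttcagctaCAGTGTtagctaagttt
*Tfrc*, first: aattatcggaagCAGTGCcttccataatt
*Tfrc*, second: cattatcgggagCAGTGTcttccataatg
*Slc11a2*: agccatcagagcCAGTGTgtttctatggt

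The *Slc11a2* hairpin had 1 unpaired position and was part of 1 of the 7 annotated coding transcripts of the gene. The other hairpins were also in only some coding transcripts, with 1 of 3 for *Tfrc*, 1 of 4 for *Slc40a1*, 2 of 3 for *Ftl1* and 4 of 5 for *Fth1*. Forms with and without a hairpin are summed in a value per gene, so which form of *Slc11a2* was low in KO was not tested. The hairpin genes did not share a direction in KO, since *Tfrc* and *Fth1* had a log2FC above 0 and *Slc11a2*, *Ftl1* and *Slc40a1* below 0, with the sign of *Fth1* and *Ftl1* turning without HET replicate 3 and KO replicate 3.

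Position was read next. *Slc11a2* lies 10.83 Mb from *Shank3* on the same chromosome. Of the 3 tested genes nearest to it on each side, *Dip2b*, *Atf1*, *Mettl7a3* and *Tfcp2* had KO libraries that overlapped WT, while *Letmd1* and *Csrnp2* did not (2 of 6, against 4.54% of all genes). *Letmd1*, 43.95 kb away on the plus strand, encodes a mitochondrial membrane protein and had 1578, 1588 and 1571 normalized counts in WT, 1607, 1540 and 1522 in HET, and 1478, 1413 and 1420 in KO. Its KO libraries were all below the others (log2FC −0.14, standard error 0.08, adjusted p = 0.999 by limma). *Csrnp2*, a nuclear protein gene 54.5 kb away on the minus strand, had 904, 941 and 994 in WT, 902, 1041 and 1026 in HET, and 1080, 1170 and 1163 in KO. Its KO libraries were all above the others (log2FC 0.26, standard error 0.09, adjusted p = 0.999 by limma), so the 2 genes lay on opposite sides of WT and neither passed the adjusted threshold. Limma called *Csrnp2* at the unadjusted level, a call lost without WT replicate 1 and without KO replicate 2, and did not call *Letmd1*.

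**Figure D3:**
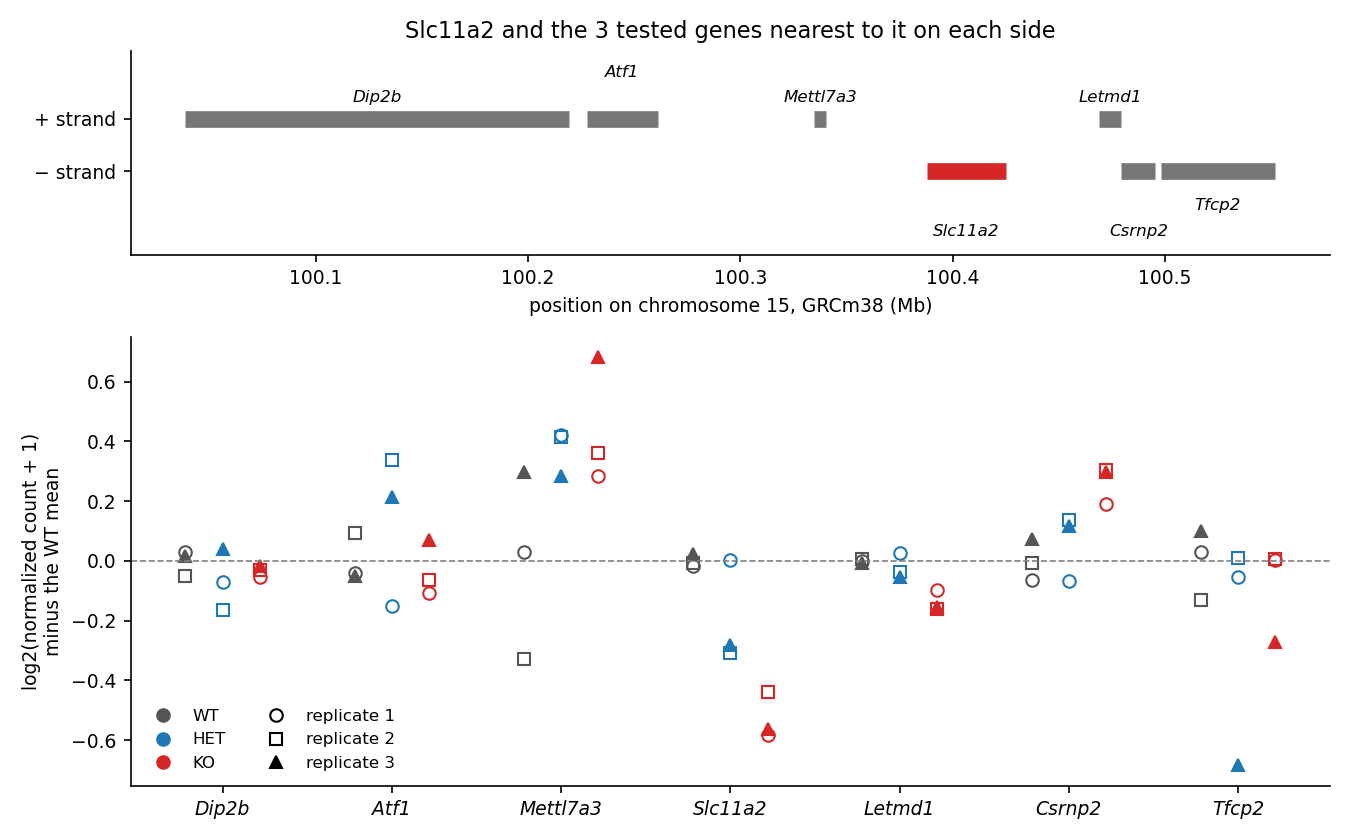
Upper panel, the position in Mb on chromosome 15 of *Slc11a2* and the 3 tested genes nearest to it on each side, by strand; lower panel, log2(normalized count + 1) of each library minus the WT mean. KO points of *Slc11a2* and *Letmd1* lie below, and those of *Csrnp2* above, all WT points, and those of the other 4 genes overlap WT.

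The genes whose pattern over the 9 libraries was most like that of *Slc11a2* were sought among 11904 genes with a mean of at least 100 normalized counts. By Pearson's r on log2(normalized count + 1), given as a description over 9 libraries of 3 genotypes, they included the adjacent *Letmd1* (0.90), *Axin1* (0.86), *Ftsj3* (0.85) and *Blzf1* (0.84). *Axin1* encodes a scaffold of the complex that degrades beta-catenin, and had 880, 901 and 869 normalized counts in WT, 898, 805 and 855 in HET, and 826, 799 and 754 in KO. Its KO libraries were all below its WT libraries and overlapped HET. These r values use the KO values on which *Slc11a2* was chosen. Of the other 9 iron genes *Ireb2* had the highest r, 0.46, at place 720, followed by *Ftl1* with 0.33, and *Tfrc* (−0.40) and *Steap2* (−0.42) were the lowest.

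Other genes of iron biology were read from 6 lists that hold 87 genes, of which 80 were tested. In KO against WT, 36 of 80 had a log2FC above 0 and 44 below, with a median of −0.021. In HET against WT the numbers were 48 and 32, with a median of 0.027. In KO against HET they were 26 and 54, with a median of −0.029, where all genes tested split into 7065 above 0 and 7174 below. At an unadjusted p under 0.05 limma called 0 of 80 in both comparisons with WT, and at an adjusted p 0 of 80.

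The KO and WT libraries did not overlap in 6 of the 80 (7.5%, against 4.54% of all genes), with 3 higher and 3 lower in KO, and the HET and WT libraries in 1 (1.25%, against 4.45%). Of the 6, 4 belong to the 26 genes of mitochondrial iron and iron-sulfur clusters. *Fdx1*, a ferredoxin that carries electrons in mitochondria and was singled out after its values were seen, was the gene found in both comparisons. It had 179, 171 and 179 normalized counts in WT, 199, 204 and 312 in HET, and 197, 200 and 249 in KO. All mutant libraries were above all WT libraries, by a log2FC of 0.40 in HET and 0.28 in KO (adjusted p = 0.999 by limma for both), and these were 0.19 without HET replicate 3 and 0.17 without KO replicate 3. *Hscb* was also higher in KO (log2FC 0.12), and *Nfu1* (−0.13), *Glrx3* (−0.09) and *Cyb561* (−0.08) were lower.

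By role, none of the 13 tested genes of iron uptake and reduction (median log2FC in KO −0.024), the 5 of storage and chaperones (−0.034), the 5 of export and ferroxidases (−0.10), the 15 of sensing and signalling (0.0023), the 26 of mitochondrial iron (−0.025) and the 16 of heme synthesis and breakdown (−0.0042) passed the unadjusted threshold in KO against WT. In HET against WT the same lists had medians of 0.066, −0.051, 0.061, 0.064, 0.035 and 0.012, again with 0 genes past it. In KO against HET the medians were 0.0031, −0.013, −0.15, −0.039, −0.058 and −0.015. Below 0 in this comparison were 6 of 13, 3 of 5, 4 of 5, 9 of 15, 21 of 26 and 11 of 16 genes, and 7174 of all 14239. The most abundant gene of each list, in the same order, was *Slc22a17*, *Pcbp2*, *App*, *Nedd4*, *Hspa9* and *Slc48a1*. The hepcidin genes *Hamp* and *Hamp2*, *Ltf* and *Ftmt* were not analysed here.

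In KO against HET 1 of the 80 genes, *Cp*, was called at an unadjusted p under 0.05 (1.25%, against 1.31% of all genes) and 0 at an adjusted p. *Cp* encodes ceruloplasmin, a ferroxidase that works with ferroportin, and was named after its values were seen. It had 455, 330 and 382 normalized counts in WT, 457, 522 and 407 in HET, and 350, 342 and 354 in KO. All KO libraries were below all HET libraries (log2FC −0.40, standard error 0.14), and both overlapped WT. The unadjusted call was lost without HET replicate 2, where the log2FC was −0.31. The KO and HET libraries did not overlap in 4 of 80 genes (5%, against 4.45% of all genes), with *Fbxl5* and *Slc48a1* also among them.

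The transporter encoded by *Slc11a2* also carries manganese and other metals, and 16 genes of manganese, zinc and copper handling were read for this reason. In KO against WT 9 were above 0 and 7 below (median log2FC 0.033), in HET against WT 10 and 6 (median 0.093), and in KO against HET 6 and 10 (median −0.053). In KO 1 of 16, *Atp7a*, passed the unadjusted threshold, as did 0.822% of all genes, and 0 of 16 the adjusted one. *Atp7a* encodes a copper-exporting ATPase and had 235, 160 and 172 normalized counts in WT, 229, 177 and 194 in HET, and 266, 205 and 328 in KO. KO replicate 2 overlapped WT, and the log2FC of 0.49 (standard error 0.21, adjusted p = 0.999 by limma) was 0.33 without KO replicate 3. The unadjusted call was lost there, without WT replicate 2 or 3, without KO replicate 1, with array weights and in a fit of WT and KO alone. The most abundant of the 16 was *Slc39a10*, a zinc importer.

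Blood and vessels carry iron into the tissue, and their markers were read beside these genes. Of 6 red blood cell genes 4 were analysed here and 3 tested, with summed normalized counts of 1626, 2404 and 3927 in WT, 3249, 2652 and 2844 in HET, and 1813, 2465 and 2397 in KO. *Hba-a2* was the most abundant. Of 8 tested endothelial markers, led by *Flt1*, 4 were above 0 in KO (median log2FC −0.00071) and 7 in HET (median 0.15) against WT, and 1 in KO against HET (median −0.13). Their summed normalized counts ran from 7760 in HET replicate 1 to 9666 in HET replicate 3. The part of blood or vessel RNA in the iron gene values was not tested.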

How the data were processed

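The authors quantified reads with Salmon and deposited 1 table of normalized counts per gene, a signal made by dividing estimated counts by size factors. The submitters' processing notes name Salmon 0.9.1, R 3.6.0, DESeq2 1.19.11 and GRCm38. Counts of reads could not be recovered from these normalized values, so no count model was run. Genes with at least 10 normalized counts in at least 3 libraries were tested in R 4.3.3 with limma 3.58.1 (moderated test with trend, 1 fit of all 9 libraries, no covariate) on log2(normalized count + 1), and p was adjusted by Benjamini-Hochberg over all genes tested (threshold 0.05). The code was tested on simulated data. Single values were compared by exact permutation tests (SciPy 1.17.1). Symbols, positions and UTR sequences came from GENCODE M21, and 2 listed names (Hjv, Fdx2) were matched to older names by RefSeq synonyms.

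The members and gene lists were chosen with earlier results of these data known. Named genes were the 10 members, from each list the most abundant gene and those at an unadjusted p under 0.05 against WT, the 3 tested genes nearest to Slc11a2 on each side, the 5 most alike in pattern, and Shank3. Fdx1, Hscb, Nfu1, Glrx3, Cyb561, Fbxl5, Adora2a, Cnp and Cp were named outside these rules, after their values were seen, because their libraries did not overlap between genotypes. A few genes that these rules name are not reported here. Deviations from the genotype mean correlated between same-numbered HET and KO libraries (0.52, 0.28 and 0.51). Such deviations cancel out within a genotype, so HET replicate 3 and KO replicate 3, which lay apart together, can raise all 3 values. These correlations therefore cannot show that the numbers pair HET with KO, and the replicate block was used as an alternative only. The mice were littermates and their RNA was handled in 3 sets, but whether a number marks a litter or a set is not stated in the sources used here. Alternatives were other pseudocounts, filters, scalings, variance priors, weights, lengths, a replicate block and leaving out libraries.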

Additional observations from a re-analysis of the deposited data

How the results depend on the processing

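In none of the settings did limma call a gene at an adjusted p under 0.05 in any comparison. When single libraries were left out, the log2FC of *Slc11a2* ran from −0.57 to −0.50 in KO against WT, from −0.29 to −0.14 in HET against WT and from −0.39 to −0.23 in KO against HET, and no other setting turned it. Of 29 fold changes followed, 5 changed sign in 6 values under settings other than leaving out 1 library, and 8 changed sign in 11 values when 1 library was left out, among them no gene outside the 10. None of these had passed the threshold, and the cause was not tested.

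In KO against WT, *Fth1* turned to −0.021 with array weights and −0.053 without HET replicate 3 and KO replicate 3, where *Ftl1* turned to 0.019 and *Ireb2* to 0.0012. In HET against WT, *Ftl1* turned to 0.14 without these libraries and *Slc40a1* to 0.0032 as a ratio of group means. Over single libraries left out, the ranges in KO were −0.053 to 0.30 for *Trf*, −0.15 to 0.25 for *Fth1*, −0.46 to 0.019 for *Ftl1* and −0.081 to 0.0012 for *Ireb2*. In HET they were −0.019 to 0.30 for *Tfrc*, −0.58 to 0.14 for *Ftl1*, −0.096 to 0.12 for *Slc40a1* and −0.12 to 0.23 for *Slc39a14*. The median of the 9 genes in KO ran from −0.024 without WT replicate 1 to 0.22 without WT replicate 3.

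Unadjusted counts of all genes were less steady. In KO against WT the 117 genes became 76 with a filter of 50, 176 without trend, 395 with array weights and 217 without HET replicate 3 and KO replicate 3, which gave 271 in HET against WT. With single libraries left out they ran from 70 to 289 in KO against WT, from 116 to 393 in HET against WT and from 141 to 298 in KO against HET. Of the 9 iron genes, 0 to 1 passed the unadjusted level in KO and 0 to 1 in HET when 1 library was left out. In KO the 1 gene was *Slc39a14* without KO replicate 3, without both libraries and with array weights, and in HET it was *Trf* without WT replicate 3 and without HET replicate 2.

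With the replicate block the unadjusted counts were 310 in KO against WT, 365 in HET against WT and 318 in KO against HET, and 1 of the 9 genes passed in KO (*Tfrc*) and 1 in HET (*Trf*). The numbers did not pair WT with the mutants, as same-numbered libraries correlated by 0.24, −0.22 and 0.024 between WT and KO and by 0.32, −0.014 and 0.0054 between WT and HET. The block changed no adjusted call. The number of reads per library is unknown, so counting error could not be set beside these ranges.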

Other observations

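Markers of other cells of the striatum were read in the same libraries. Microglia, which take up and store iron, had 10 of 10 markers tested. Against WT their log2FC had medians of −0.035 (KO) and 0.027 (HET), and their summed normalized counts ran from 13503 in WT replicate 3 to 15565 in HET replicate 2, led by *Csf1r*. The 10 astrocyte markers, led by *Slc1a2*, had medians of 0.056 in KO and 0.10 in HET, with sums from 138248 in WT replicate 1 to 171596 in HET replicate 3. The 10 markers of cortical glutamatergic neurons, led by *Slc17a7*, had medians of 0.036 in KO and −0.067 in HET, and their sums ran from 45476 in HET replicate 1 to 72601 in KO replicate 3. In KO against HET 9 of 10 cortical markers were above 0 (median 0.10). In the same comparison 8 of 10 astrocyte markers (median −0.036) and 8 of 10 microglia markers (median −0.061) were below 0. In none of these 3 lists did limma call a gene at an unadjusted p under 0.05 or at an adjusted p in KO or HET against WT.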
